A study of Mus musculus with 14 samples.

Results

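The response described here is the one that 3 carbon fibres shared in mouse lung. Its members are the genes whose mean lay on the same side of the vehicle control in all 3 fibre groups, and 15851 of the 30579 genes past the background filter met that rule (51.8% of those tested), 8650 above control and 7201 below it. Whole lungs of male C57BL/6N mice were taken 1 month after 200 µg of carbon fibre per mouse had been placed in the trachea, and total RNA was hybridised to one-colour Agilent arrays, 1 array per mouse. The fibre groups, of 3 mice each, were the carbon fibre before recycling (VCF), the fibre after carbonization (CCF) and the fibre after firing (RCF). The 5 control mice were given the PBS vehicle by the same route and taken at the same time. The series' design text calls the samples independent biological samples. The sources used here give no age, and no mouse received a particle other than a carbon fibre, so that the comparison shows fibre against vehicle and not carbon fibre against other particles.

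Inhaled or instilled fibres that reach the small airways are met by alveolar macrophages, which engulf them, and by the airway lining. That lining consists mostly of club cells, which secrete protective proteins and break down foreign compounds with cytochrome P450 and glutathione enzymes, and of ciliated cells, whose motile cilia move mucus and trapped particles upwards. Lymphocytes can gather in small clusters beside the airways, where B cells mature into antibody-producing cells. Long fibres that macrophages cannot take up whole are cleared slowly.

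The labelled tissue was borne out by its markers: the 17 alveolar type 2 markers, which include the surfactant proteins, had a summed level of 790 to 1228 times the 75th percentile of the array in controls and 706 to 1807 times in fibre arrays. Markers of tissue next to the lung varied among the controls. The 11 measured squamous epithelium markers summed to 334 times the 75th percentile in control 2 against 2.88 to 9.05 times in the fibre arrays, and 11 of the 15 heart and skeletal muscle markers lay below control in all 3 fibre groups with none past the test. The 75th percentile of intensity was 277, 323 and 375 on VCF 1, CCF 2 and RCF 1, all fibre arrays, and 891 to 2953 on the other 11. Arrays stood on 3 slides. Slide 2 held no RCF array, and slide 3, scanned on another day, held no VCF or CCF array. Without the 3 dim arrays 64 of 85 named calls no longer passed the test, as stated below for each group of genes, with the sign kept in all of them.

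Levels below are log2 of the processed signal minus the 75th percentile of the array, so that 0 is that percentile, and values of single arrays are listed in the order of their replicate numbers. A difference is the mean of the 3 fibre group means minus the control mean on this log2 scale, with limma's standard error, over 9 fibre and 5 control arrays. Adjusted p is limma's moderated test with Benjamini-Hochberg adjustment over the 30574 genes tested, and a gene is said to have risen or fallen when it is under 0.05. By that test 790 genes differed between fibre and control (2.58% of the genes tested), 613 higher (2.00%) and 177 lower (0.579%). Of these, 784 were members, 611 higher and 173 lower. The rule used the signs of the same differences, so that this overlap describes the calls and adds no support to them. The median difference was 0.64 for the rises and −0.74 for the falls, against 0.01 over all genes, and 89 rises and 58 falls reached 2-fold. All 9 fibre arrays lay on 1 side of the control mean for 553 rises and 137 falls. The 9 fibre arrays and the 5 control arrays did not overlap at all for 243 rises and 55 falls, where 1.08% and 0.559% of all genes tested stood apart in this way.

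The rule has no margin, so that 5652 members had a group mean within 0.1 of control and 5245 other genes missed only by a group within 0.1 on the wrong side. Among the called members 15 were that close to the line. Of the 6 called genes outside the rule, Nr1d2, a repressor of the circadian clock, lay at −0.02 in VCF, 0.95 in CCF and 0.80 in RCF, and Ehf, an epithelial transcription factor, at 0.06 in VCF and −1.53 in CCF.

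The number of calls rested on single arrays. Leaving out each array in turn gave between 61 called members (without control 4) and 1029 (without VCF 1), with 128 without control 1, 185 without control 5, and 207 to 322 without VCF 2, VCF 3, CCF 2 or an RCF array. Without CCF 1 or CCF 3 it was 521 and 482. All 784 kept their sign in each of these fits, which the choice of genes with 3 group means on 1 side and a passed test largely fixes, and 60 passed the test in every one of them. Without the 3 dim arrays together 166 members were called, 125 of them among the 784. Within slide 1 the rises lay above control for 611 of 611, within slide 2 for 611 and within slide 3 for 609, with medians of 0.67, 0.50 and 0.65. The falls lay below control for 172, 172 and 171 of 173. On each slide these differences compare between 1 and 2 controls with 2 to 5 fibre arrays, on slide 3 with RCF alone, and they are not independent of the calls.

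The called members lie on the same side of control in each fibre by the rule, and each fibre's difference shares the same control arrays. The median over the rises was 0.44 in VCF, 0.82 in CCF and 0.64 in RCF, and over the falls −0.48, −0.92 and −0.69. CCF gave the largest difference for 444 rises, RCF for 118 and VCF for 49, and for the falls it was 117, 23 and 33. Tested against control alone, 26 genes passed in VCF (0.0850%), 1832 in CCF (5.99%) and 47 in RCF (0.154%). Of the 784 called members, 11 passed in VCF, 675 in CCF, 45 in RCF and 102 in none of the 3. Gm15738, a long non-coding RNA gene named after its values were seen, was the only called member with a symbol past the test in each fibre alone. Its level was −6.63, −6.62, −5.62, −5.53 and −5.81 on the control arrays, −2.84, −4.38 and −2.85 on the VCF arrays, −4.30, −3.90 and −3.66 on the CCF arrays, and −3.39, −3.52 and −3.22 on the RCF arrays. It rose by 2.48 ± 0.29 (adjusted p = 0.0054), with 2 of 5 control arrays above background, and by 0.78 after normexp background correction and quantile scaling.

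**Figure D1:**
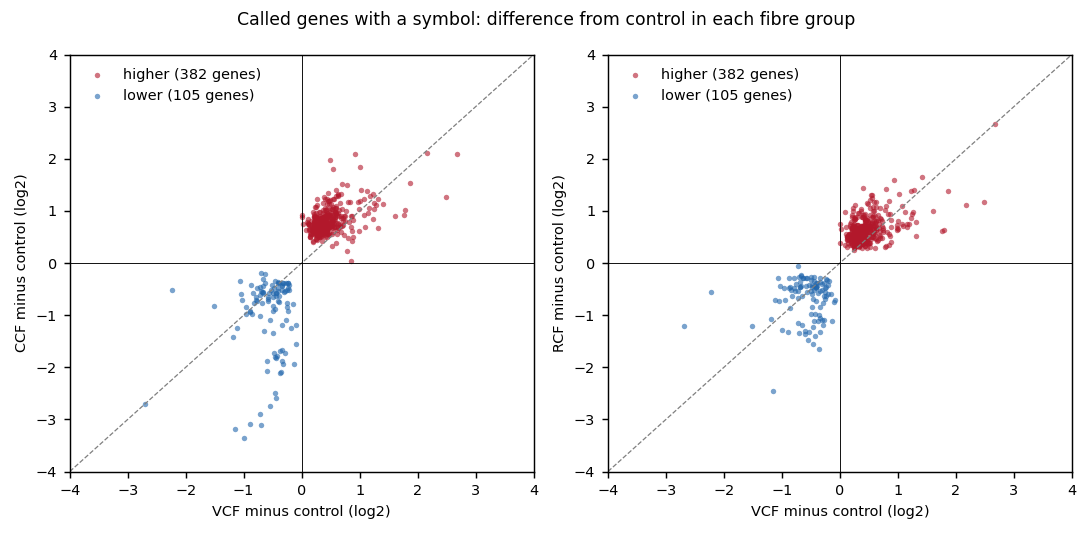
Difference from control (log2) of each called gene with a symbol in VCF (horizontal axes) against CCF (left) and RCF (right), with the 382 rises in red and the 105 falls in blue and the dashed line marking equal differences. The rule keeps points out of the mixed quadrants, and most points lie farther from 0 in CCF than in VCF, with medians of 0.82 and 0.44 for all called rises.

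A test of the fibres against each other, which does not use their common shift from control, found 27 genes (0.0883% of those tested), and 4 of the 784 called members were among them. At an unadjusted p under 0.05 the same test gave 3789 genes (12.4%) and 320 of the 784 called members. By both counts the called members differed among the fibres more often than all genes did. The one called member with a symbol past the F test at an adjusted p under 0.05 was Crabp1, a binding protein for retinoic acid. Its level was −2.40, −2.51, −2.34, −2.36 and −2.14 on the control arrays, −4.89, −4.62 and −4.23 on the VCF arrays, −2.69, −2.87 and −3.04 on the CCF arrays, and −3.54, −2.73 and −2.42 on the RCF arrays. RCF 3 lay among the controls and the other fibre arrays below all of them, lowest in VCF, at −2.23 ± 0.23 against −0.52 in CCF and −0.55 in RCF. The fall in the mean of the fibres was −1.10 ± 0.18 (adjusted p = 0.0159), and the fibres differed among themselves (adjusted p = 0.0434). A second, dim probe of Crabp1 gave −0.25 (adjusted p = 0.82), and with the mean of both probes the fall was −0.67 and did not pass.

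Some genes of the cilium were among the rises. Of the 17 measured ciliated cell markers 3 rose (2.00% of all genes did) and none fell. These were Gmnc, which starts the programme that makes cells multiciliated, Rsph4a, a part of the radial spoke head inside motile cilia, and Hydin, a part of the central pair apparatus. Their differences were 1.20 ± 0.17 (adjusted p = 0.011), 0.77 ± 0.12 (adjusted p = 0.0158) and 0.51 ± 0.11 (adjusted p = 0.0413). The list as a whole moved little: 10 markers lay above control in all 3 groups and 2 below, the median was 0.19, and the summed level was 132 to 145 times the 75th percentile in controls and 108 to 145 times in fibre arrays.

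Rsph4a was measured at −1.34, −1.72, −1.48, −1.65 and −1.71 on the control arrays. The VCF arrays read −1.17, −0.58 and −0.94, the CCF arrays −0.46, −0.78 and −0.80, and the RCF arrays −0.64, −0.89 and −0.99. No fibre array reached down to the controls, and the 3 fibres were close, at 0.68, 0.90 and 0.74 above control. Gmnc was dim, with 3 of 5 control arrays above background, and read −4.24, −4.58, −4.39, −4.26 and −4.12 on the control arrays. It stood at −4.45, −3.45 and −3.59 on the VCF arrays, −2.39, −2.16 and −2.48 on the CCF arrays and −2.89, −3.18 and −3.52 on the RCF arrays, so that VCF 1 lay among the controls. Hydin read −0.79, −0.90, −0.92, −0.90 and −0.90 on the control arrays, −0.64, −0.18 and −0.50 on the VCF arrays, −0.01, −0.36 and −0.46 on the CCF arrays, and −0.17, −0.44 and −0.57 on the RCF arrays. Every fibre array lay above every control for this probe, but a dimmer probe of Hydin gave −0.87 (adjusted p = 0.092), and the mean of both probes was −0.18.

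A further 12 rises belong to cilia by their known function. Except for Iqub and Spata17 they were picked out after their values were seen, and all are given as description. Ciliary genes outside the list were not counted, so that no share stands beside this number. For motile cilia these were Ankrd45 at 1.07 ± 0.19, Daw1, which helps to load dynein arms, at 0.84 ± 0.17, Sntn, a protein of the ciliary tip, at 0.64 ± 0.15, Spef2 of the central pair at 0.59 ± 0.11, and Cfap46 of the same structure at 0.53 ± 0.11. Iqub and Spata17, both with calmodulin-binding IQ motifs and known from sperm, were among the 14 largest rises of all, at 1.26 ± 0.26 and 1.16 ± 0.25. Transport and basal body genes also stood among the rises: Cilk1, a kinase that limits cilium length, at 0.83 ± 0.14, Cep290 of the transition zone at 0.63 ± 0.12, Intu, a planar polarity effector, at 0.56 ± 0.13, Ift88 of the transport trains at 0.51 ± 0.10 and Dync2h1, their retrograde motor, at 0.49 ± 0.11. The controls and the fibre arrays did not overlap for Iqub, Cep290, Ift88, Dync2h1 and Cfap46. Other probes gave −0.12 and 0.24 for Spef2, −0.06 for Dync2h1, −0.55, 0.08 and 0.24 for Cfap46, 0.20 for Cilk1, 0.34 for Ift88 and 0.53 for Spata17, with adjusted p from 0.103 to 0.963, so that the calls of these genes rest on 1 probe each. With each array left out in turn Gmnc kept its call in 14 of 14 fits, Rsph4a in 13, Ankrd45 and Cilk1 in 11, Cep290 in 10, Spef2 in 9, Ift88 in 8, Cfap46 in 7 and Daw1 in 6. Iqub kept it in 3, Hydin, Sntn, Dync2h1 and Spata17 in 2, and Intu in 1. With the dim arrays left out Gmnc, Rsph4a, Ankrd45, Daw1 and Intu passed, and the other 10 did not, with adjusted p from 0.0597 for Cilk1 to 0.114 for Spata17. After normexp background correction and quantile scaling Gmnc stood at 0.47, Ankrd45 at 0.22, Daw1 at 0.43, Intu at 0.24 and Iqub at 0.52.

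The ciliary genes named above were chosen among the rises, and the 250 bases before their starts were searched for GTTGCC on both strands, the core shared by the X-box sites of RFX factors, which drive many ciliary genes. RefSeq's table on GRCm38.p6 held such a sequence for 14 of the 15 ciliary genes named above. The core was found in 4 of them (28.6%), in 34 of 310 promoters of called rises and in 2833 of 27025 promoters of the whole table (10.5%). A match in a window of this size is a description of the letters and not a binding site. Hydin (chr8:110266727-110266976, plus strand) and Sntn (chr14:13670626-13670875, plus strand) are shown as a case with the core 13 bases and a case with it 66 bases before the start, 5′ to 3′ with the match in capitals (GGCAAC is the core read on the other strand).
Hydin: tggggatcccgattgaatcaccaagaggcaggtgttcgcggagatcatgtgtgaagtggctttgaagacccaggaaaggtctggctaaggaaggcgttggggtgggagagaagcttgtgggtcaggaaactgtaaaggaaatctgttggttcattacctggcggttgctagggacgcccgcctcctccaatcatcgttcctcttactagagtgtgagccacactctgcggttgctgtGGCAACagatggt
Sntn: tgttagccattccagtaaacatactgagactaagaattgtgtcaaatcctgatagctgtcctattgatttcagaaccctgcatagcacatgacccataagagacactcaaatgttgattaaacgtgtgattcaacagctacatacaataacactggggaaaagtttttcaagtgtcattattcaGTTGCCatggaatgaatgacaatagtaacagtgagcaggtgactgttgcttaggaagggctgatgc

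Some club cell genes of foreign compound breakdown also rose. Of 18 club cell and mucus markers 3 rose (16.7%, where 2.00% of all genes did) and none fell. Among them were Cyp2b10, a cytochrome P450, by 0.55 ± 0.10 (adjusted p = 0.024), and Gsta3, a glutathione transferase, by 0.42 ± 0.08 (adjusted p = 0.0231). The secreted and mucin genes of the list did not pass the test. The median of the list was 0.33, at 0.53 in VCF, 0.36 in CCF and 0.01 in RCF, and 8 markers lay above control in all 3 groups. Its summed level ran from 801 to 1328 times the 75th percentile in controls and from 755 to 2007 times in fibre arrays, so that the ranges overlapped. Lung RNA is a mixture, and more cells of a type cannot be told apart from more RNA per cell in these values.

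Cyp2b10 read 5.59, 5.38, 5.74, 5.51 and 5.36 on the control arrays, 5.90, 6.21 and 6.08 on the VCF arrays, 6.06, 6.28 and 6.02 on the CCF arrays, and 6.16, 5.94 and 5.95 on the RCF arrays. Its lowest fibre array was above its highest control, and the 3 fibres were even, at 0.55, 0.60 and 0.50 above control. Gsta3 read 4.99, 5.01, 4.96, 4.89 and 4.91 on the control arrays, 5.47, 5.58 and 5.59 on the VCF arrays, 5.27, 5.37 and 5.38 on the CCF arrays, and 5.38, 5.17 and 5.16 on the RCF arrays, again without overlap. For Gsta3 the difference was largest in VCF, at 0.60, and smallest in RCF, at 0.28. A second probe of Cyp2b10 gave 0.64 (adjusted p = 0.0491), while that of Gsta3 gave 0.26 (adjusted p = 0.251). Sult1d1, a sulfotransferase of the same kind of metabolism, rose by 1.17 ± 0.26 (adjusted p = 0.0438), with a second probe at 1.26 (adjusted p = 0.0304). The call was kept in 11 of 14 fits with 1 array left out for Cyp2b10 and for Gsta3 and in 2 for Sult1d1. The rises were 0.53, 0.41 and 1.23 without the 3 dim arrays, and none of these 3 passed (adjusted p = 0.0638, 0.0666 and 0.0998).

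**Figure D2:**
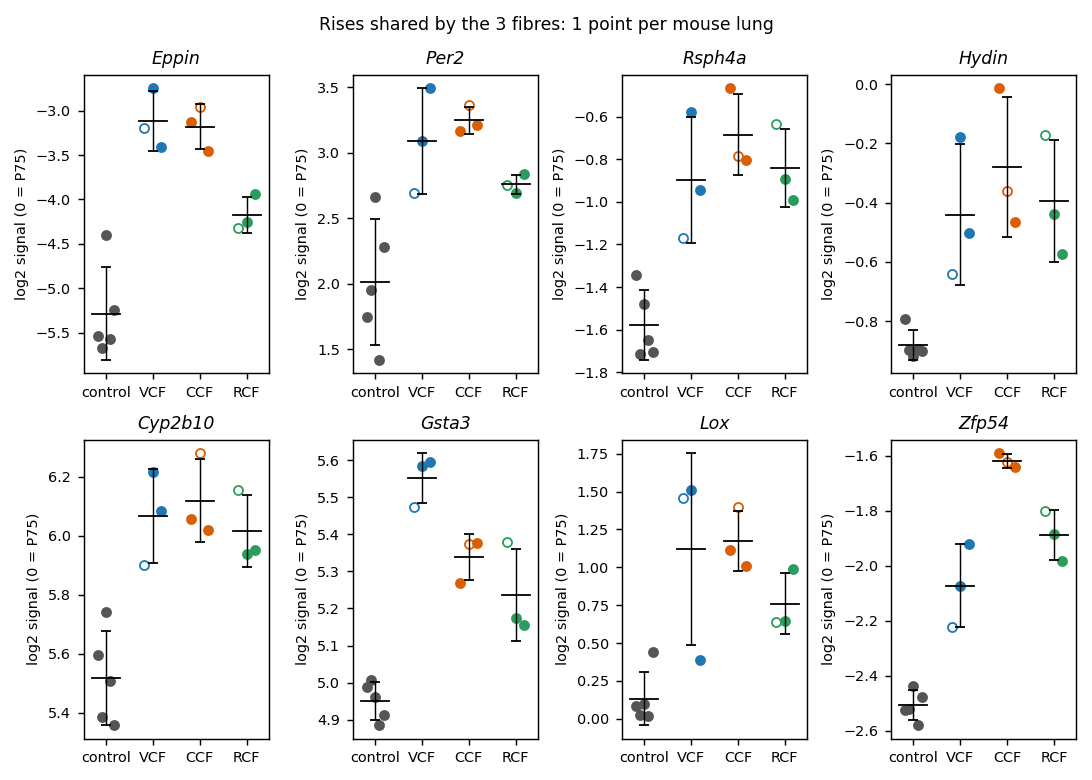
Level of 8 genes that rose, as log2 signal with 0 at the 75th percentile of the array, with 1 point per mouse and the group mean ± SD (5 controls, 3 mice per fibre); open circles are the 3 dim arrays. The fibre points lie above all controls for Eppin, Per2, Rsph4a, Hydin, Cyp2b10, Gsta3 and Zfp54, and VCF 3 lies within the range of the controls for Lox.

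Zinc finger genes made up the largest group by number. Of 352 genes with a numbered Zfp symbol, most of which encode DNA-binding proteins and many of which carry a KRAB repressor domain, 36 rose (10.2%, where 2.00% of all genes tested rose) and 1 fell. The median over the 352 was 0.19, at 0.12 in VCF, 0.27 in CCF and 0.20 in RCF, and 188 lay above control in all 3 groups against 54 below. This list was drawn up after zinc finger genes had been seen among the rises, so its count is not independent evidence. By array, the median deviation of the 352 from the control mean was between −0.01 and 0.04 in the controls and between 0.09 and 0.36 in the fibre arrays, with the largest value on CCF 2, which is dim. Genes of one family share sequence, and probes may read more than 1 of them.

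Zfp54 had the smallest p of the family. Its level was −2.52, −2.52, −2.44, −2.58 and −2.48 on the control arrays, −2.22, −2.07 and −1.92 on the VCF arrays, −1.59, −1.62 and −1.64 on the CCF arrays, and −1.80, −1.88 and −1.98 on the RCF arrays. The controls lay in a narrow band below all fibre arrays, and the CCF arrays lay highest. The rise was 0.65 ± 0.08 (adjusted p = 0.00592). Zfp560 rose by 1.53 ± 0.21 (adjusted p = 0.00948) and Zfp518a by 1.13 ± 0.15 (adjusted p = 0.00937), both at dim levels with 2 and 3 of 5 control arrays above background. Zfp54 lies on chromosome 17, and 5 other called zinc finger genes of that chromosome were named after their values were seen: Zfp51 at 0.63 ± 0.09, Zfp52 at 0.78 ± 0.11, Zfp758 at 0.93 ± 0.17, Zfp40 at 0.60 ± 0.11 and Zfp943 at 0.47 ± 0.10. A second probe of Zfp52 gave −0.13 (adjusted p = 0.883) and one of Zfp943 gave 0.92 (adjusted p = 0.0541). Chromosome 17 as a whole held 20 called rises among 854 genes (2.34%). Zfp54, Zfp560, Zfp518a, Zfp51 and Zfp52 kept their call in 14 of 14 fits with 1 array left out, and Zfp40, Zfp758 and Zfp943 in 11, 10 and 6. Of these, the first 5 passed without the 3 dim arrays and the last 3 did not (adjusted p from 0.0597 to 0.0748). Zfp560 stood at 0.44 and Zfp518a at 0.36 after normexp correction and quantile scaling.

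**Figure D3:**
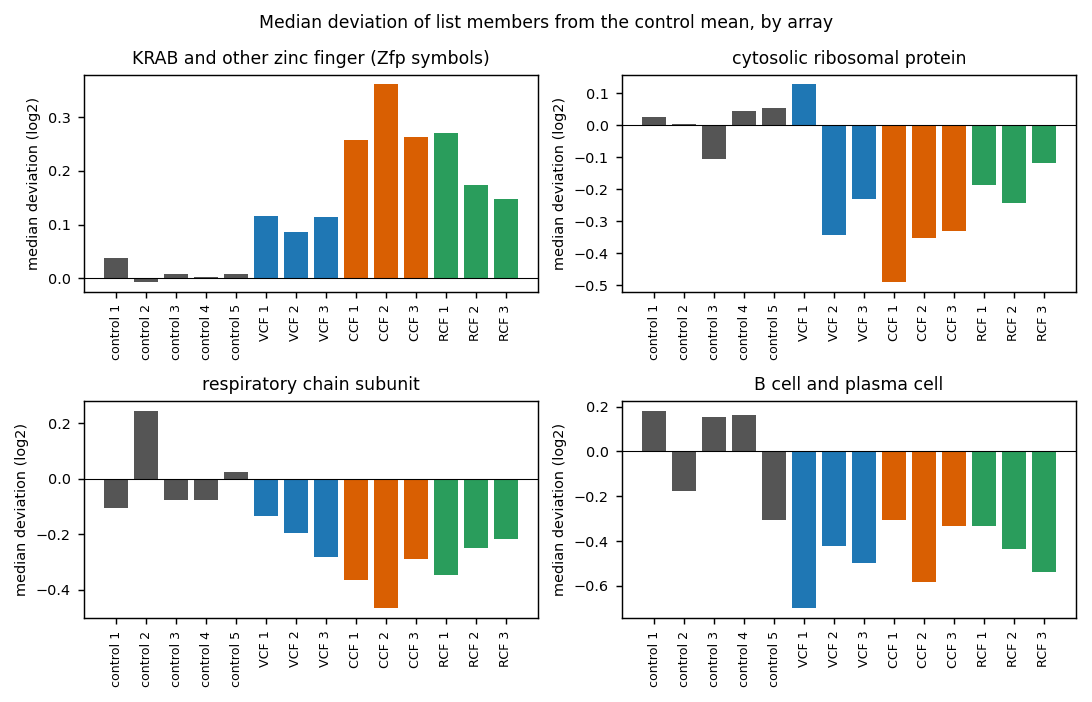
Median deviation from the control mean (log2) of the members of 4 lists on each of the 14 arrays, as bars starting at 0, coloured by group. The fibre arrays lie above all controls for the zinc finger list (0.09 to 0.36), while for the ribosomal list VCF 1 lies above all controls although most fibre arrays lie below 0.

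The largest single rises were of genes at low levels. Eppin, a protease inhibitor of the WAP and Kunitz type, read −5.54, −5.68, −4.40, −5.57 and −5.24 on the control arrays, −3.20, −2.75 and −3.41 on the VCF arrays, −3.13, −2.96 and −3.45 on the CCF arrays, and −4.32, −4.25 and −3.94 on the RCF arrays. The RCF arrays lay just above control 3 and the others well above, and the rise was 1.80 ± 0.21, or 3.47-fold (adjusted p = 0.0054), kept in 14 of 14 fits with 1 array left out. After normexp background correction and quantile scaling it was 0.60 (adjusted p = 0.0405). P2ry12, the ADP receptor of platelets and microglia, read −5.63, −4.83, −5.49, −5.57 and −5.28 on the control arrays, −3.49, −3.97 and −4.39 on the VCF arrays, −4.08, −4.03 and −4.59 on the CCF arrays, and −3.07, −3.86 and −4.17 on the RCF arrays. It rose by 1.40 ± 0.22 (adjusted p = 0.0146) with nearly even values over the fibres and stood at 0.35 after the same correction, while none of the 15 platelet and megakaryocyte markers passed the test and their median was 0.03.

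Clca3a2, of the family of chloride channel accessory proteins, rose by 1.64 ± 0.31 (adjusted p = 0.0279), with 2.49 in VCF, 1.26 in CCF and 1.18 in RCF. Slc16a4, of the monocarboxylate transporter family, rose by 1.31 ± 0.26 and Hs3st3a1, which sulfates heparan chains, by 1.26 ± 0.25. Slc39a10, a zinc importer, rose by 1.22 ± 0.20 and was largest in CCF at 1.80. Scai, a repressor of the cofactor MRTF, rose by 1.22 ± 0.18, although a dimmer probe gave −0.02 (adjusted p = 0.964), and Tcf23, a helix-loop-helix protein, rose by 1.15 ± 0.21. Trim40, a ubiquitin ligase of the TRIM family, was not well above background on any control array. With each control value set no lower than its array's lowest signal above background, the mean over the fibres was 2.00-fold higher. Of the 611 rises 16 were above background on no control array. The calls of Clca3a2, Slc16a4 and Tcf23 were kept in 8, 8 and 10 of 14 fits with 1 array left out, that of Hs3st3a1 in 6 and that of Trim40 in 2, with an adjusted p of up to 0.122 for Trim40. Eppin, P2ry12, Slc39a10 and Scai passed without the 3 dim arrays, and Clca3a2, Slc16a4, Hs3st3a1, Tcf23 and Trim40 did not (adjusted p from 0.0683 to 0.0887). With the authors' deposited log2 values P2ry12, Slc16a4 and Hs3st3a1 did not pass. Other probes gave 0.23 for Slc39a10 and 0.33 for Trim40 (adjusted p = 0.783 and 0.769). After normexp correction and quantile scaling Clca3a2 stood at 0.97, Slc16a4 at 0.39, Hs3st3a1 at 0.40 and Trim40 at 0.22.

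Some rises had little noise and are given for that reason, named after their values were seen. Fndc3a, a fibronectin type III domain protein, rose by 0.98 ± 0.11, Fpgt, an enzyme of fucose salvage, by 0.80 ± 0.09 and Zbtb34, another zinc finger protein, by 1.01 ± 0.13. Their adjusted p values were 0.00418, 0.00418 and 0.00937, and all kept their call without each array in turn and without the 3 dim arrays together. Fpgt read −2.65 to −2.51 in the controls and −2.20 to −1.50 in the fibre arrays. A dimmer probe of Fndc3a gave −0.10 (adjusted p = 0.91).

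Regulators of daily rhythm, inflammation and protein stress each gave a single call. Per2, a core clock repressor, read 1.75, 1.95, 2.66, 1.42 and 2.28 on the control arrays, 2.69, 3.09 and 3.49 on the VCF arrays, 3.16, 3.36 and 3.22 on the CCF arrays, and 2.75, 2.69 and 2.84 on the RCF arrays. Control 3 reached almost to the lowest fibre arrays, and the rise was 1.02 ± 0.19 (adjusted p = 0.0277). A second probe gave 0.17 (adjusted p = 0.879). Per2 was the only called member among 16 clock genes (6.25%, where 2.00% of all genes rose), whose median was 0.11. Nr1d2 passed the test outside the rule, as given above. Of the 16, 5 lay above control at an unadjusted p under 0.05 and 0 below, where 11.5% of all genes lay above. The sources used here give no time of day of sampling. Nfkbiz, an inducible partner of NF-kB, rose by 0.75 ± 0.14 (adjusted p = 0.0237), and its fibre arrays, between −0.87 and 0.16, lay above all controls. Another probe of Nfkbiz gave 0.57 (adjusted p = 0.201), and with the mean of its probes the rise did not pass. The list of 25 NF-kB feedback and immediate early genes held no other call and had a median of −0.02. Without adjustment 2 of the 25 lay above control at p under 0.05 and 3 below. Hspa4l, a chaperone of the Hsp110 family, rose by 0.64 ± 0.12 (adjusted p = 0.0282), and other probes of it gave 0.88 and 0.81 (adjusted p = 0.0266 and 0.0284). Of the 14 heat shock genes 9 lay above control in all 3 groups and none below, with a median of 0.26. Without adjustment 4 of the 14 lay above control at p under 0.05 and 0 below. Dnajb9 of the endoplasmic reticulum rose by 0.50 ± 0.12, Trp53inp1, a p53 target, by 0.67 ± 0.13 and Stat2, which carries interferon signals, by 0.42 ± 0.10. For Stat2 VCF was lowest, at 0.12. Other probes gave 0.92 for Dnajb9, 0.50 for Trp53inp1 and 0.35 for Stat2 (adjusted p = 0.249, 0.205 and 0.783). Per2 and Hspa4l kept their call in 7 of 14 fits with 1 array left out, Nfkbiz in 12, Trp53inp1 in 6, and Dnajb9 and Stat2 in 2. Only Nfkbiz of these 6 passed without the 3 dim arrays, at 0.81 (adjusted p = 0.0457), and Per2 stood at 1.07 (adjusted p = 0.068).

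Among genes of resident cells and matrix the calls were few. Siglecf, carried by alveolar macrophages and eosinophils, rose by 0.48 ± 0.11 (adjusted p = 0.0465) from between −0.17 and 0.25 in controls to between 0.36 and 0.85 in fibre arrays. It was the only 1 of 18 alveolar macrophage markers and of 16 eosinophil, basophil and mast cell markers to rise, where 2.00% of all genes rose. The medians of these lists were 0.09 and −0.32. Without adjustment 4 of the 18 lay above control at p under 0.05 and 0 below, and 1 and 3 of the 16. Lyve1, a hyaluronan receptor of lymphatic vessels and some macrophages, rose by 0.67 ± 0.13 (adjusted p = 0.0277), with 0.25 in VCF, 1.08 in CCF and 0.69 in RCF. Lox, which cross-links collagen and elastin, rose by 0.88 ± 0.18 (adjusted p = 0.0329), while the other 27 measured fibroblast and matrix genes did not pass the test and the median of the list was −0.09. Sema3e, a guidance factor listed with the alveolar type 1 markers, rose by 0.47 ± 0.11, with 0.02 in VCF. Lyve1 kept its call in 8 of 14 fits with 1 array left out, Lox in 5, Siglecf in 3 and Sema3e in 0. None of these 4 passed without the 3 dim arrays, with adjusted p from 0.0804 for Lyve1 to 0.124 for Sema3e.

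Some genes of B cells and other lymphocytes were among the falls. Of 16 B cell and plasma cell markers 2 fell (12.5%, where 0.579% of all genes fell) and none rose, 13 lay below control in all 3 groups, and the median was −0.45, at −0.52 in VCF, −0.32 in CCF and −0.45 in RCF. At an unadjusted p under 0.05 it was 11 of 16 below control, where 8.05% of all genes were. The summed level of the list ran from 71.7 to 91.6 times the 75th percentile in controls and from 63.6 to 78.1 times in fibre arrays, and all markers measured were above background on at least 1 control array. Fewer B cells and less RNA per B cell cannot be told apart here.

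Cd79b, a signalling chain of the B cell receptor, read 4.58, 4.06, 4.27, 4.51 and 3.84 on the control arrays, 3.02, 3.64 and 3.23 on the VCF arrays, 3.16, 3.25 and 3.42 on the CCF arrays, and 3.49, 3.58 and 3.56 on the RCF arrays. All fibre arrays lay below all controls, and the fall was −0.88 ± 0.14 (adjusted p = 0.0169). Pou2af1, the coactivator that B cells need for germinal centres, read 1.59, 1.91, 1.86, 1.64 and 1.64 on the control arrays, 1.27, 1.28 and 1.12 on the VCF arrays, 1.21, 1.48 and 1.23 on the CCF arrays, and 1.37, 1.45 and 1.58 on the RCF arrays. It fell by 0.39 on the log2 scale (SE 0.09, adjusted p = 0.0481), and RCF 3 came within reach of control 1. Tnfrsf17, the survival receptor BCMA of plasma cells, fell by 1.18 (SE 0.28, adjusted p = 0.0481) at a low level, and Cd72, a B cell co-receptor named after its values were seen, by 0.58 (SE 0.13). Cd79b kept its call in 12 of 14 fits with 1 array left out, Cd72 in 3, and Pou2af1 and Tnfrsf17 in 0, with adjusted p between 0.0505 and 0.12 for Tnfrsf17. Without the 3 dim arrays none of these 4 passed, with Cd79b at −0.82 (adjusted p = 0.0654) and Tnfrsf17 at −1.05 (adjusted p = 0.123). A second probe of Cd72 gave −0.19 (adjusted p = 0.561).

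Ccr7, the receptor that guides dendritic cells and naive T cells to lymph nodes, read 2.64, 2.60, 2.97, 2.53 and 3.01 on the control arrays, 1.43, 2.01 and 2.32 on the VCF arrays, 2.02, 1.80 and 2.13 on the CCF arrays, and 1.89, 2.12 and 2.32 on the RCF arrays. The groups did not overlap, the 3 fibres were close at −0.83, −0.77 and −0.64, and the fall was −0.74 ± 0.15 (adjusted p = 0.0348). A second probe gave −0.82 (adjusted p = 0.038). Cd2, an adhesion receptor of T and NK cells, read 2.84, 2.64, 2.68, 2.85 and 2.64 on the control arrays, 1.88, 2.24 and 2.07 on the VCF arrays, 2.38, 2.47 and 2.41 on the CCF arrays, and 2.53, 2.39 and 2.52 on the RCF arrays. It fell by 0.41 on the log2 scale (SE 0.09, adjusted p = 0.0369), most in VCF. The other 22 T and NK cell markers did not pass the test, and the median of that list was −0.20, at −0.50 in VCF, 0.00 in CCF and −0.23 in RCF. Of the 23, 7 lay below control at an unadjusted p under 0.05 and 0 above, where 8.05% of all genes lay below. Thy1 and Ptprcap, both of T cells and named after their values were seen, fell by 0.45 and 0.57 (SE 0.10 and 0.13). Clec2g, a lectin of the family that NK receptors bind, fell by 1.03 (SE 0.19, adjusted p = 0.0264). Clec2g kept its call in 11 of 14 fits with 1 array left out, Ccr7 in 4, Cd2 and Thy1 in 3 and Ptprcap in 1. None of these 5 passed without the 3 dim arrays (adjusted p from 0.0691 to 0.117), with Ccr7 at −0.60 and Cd2 at −0.39.

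**Figure D4:**
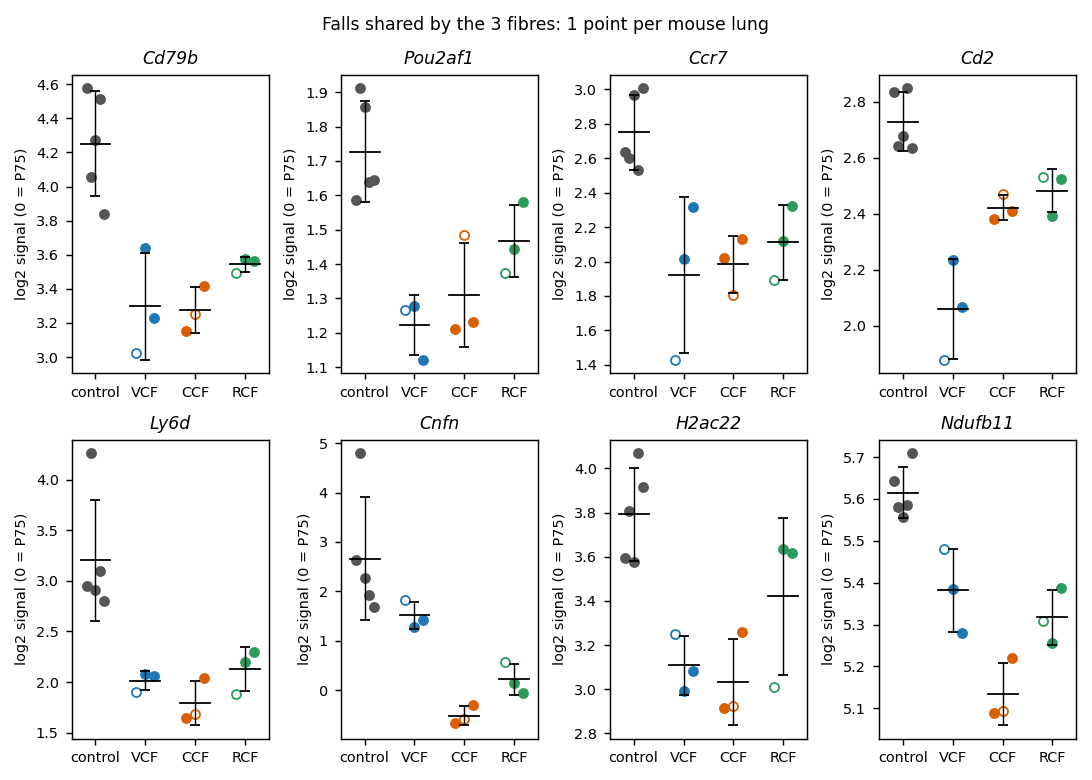
Level of 8 genes that fell, as log2 signal with 0 at the 75th percentile of the array, with 1 point per mouse and the group mean ± SD (5 controls, 3 mice per fibre); open circles are the 3 dim arrays. The fibre points lie below all controls for Cd79b, Pou2af1, Ccr7, Cd2, Ly6d and Ndufb11, while VCF 1 overlaps the controls for Cnfn and RCF 2 and 3 for H2ac22, and control 2 stands high for Ly6d and Cnfn.

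The largest fall was of Cnfn, a protein of the cornified envelope of squamous epithelium. Its level was 2.64, 4.79, 2.28, 1.93 and 1.68 on the control arrays, 1.82, 1.29 and 1.42 on the VCF arrays, −0.67, −0.59 and −0.30 on the CCF arrays, and 0.57, 0.14 and −0.06 on the RCF arrays. It fell by 2.26 (SE 0.42, adjusted p = 0.026), or 4.80-fold, with −1.15 in VCF, −3.18 in CCF and −2.45 in RCF. Ly6d, a surface protein of squamous epithelium and of early B cells, read 2.95, 4.26, 2.91, 3.10 and 2.80 on the control arrays, 1.91, 2.08 and 2.06 on the VCF arrays, 1.65, 1.69 and 2.04 on the CCF arrays, and 1.88, 2.20 and 2.30 on the RCF arrays. It fell by 1.23 (SE 0.22, adjusted p = 0.0231), and all fibre arrays lay below all controls. Endou, a ribonuclease known from squamous epithelium and B cells and named after its values were seen, fell by 0.80 (SE 0.14), while a second probe gave −0.16 (adjusted p = 0.723).

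Control 2 held the highest value of all 3 genes, and it is the array on which the 11 squamous markers summed to 334 times the 75th percentile. The other controls summed to as little as 4.06 times. Without control 2 the falls were −1.73 for Cnfn (adjusted p = 0.00706), −0.96 for Ly6d (adjusted p = 0.00779) and −0.68 for Endou (adjusted p = 0.0247). None of the squamous markers themselves passed the test. Their median was −0.70, and Krt4, with the smallest p among them, went from −2.52 to −0.88 without control 2 (adjusted p = 0.391 and 0.666). Cnfn kept its call in 8 of 14 fits with 1 array left out, Ly6d in 12 and Endou in 11, and without control 4 the adjusted p was 0.0607, 0.0738 and 0.0746. They stood, when the dim arrays were left out, at −2.36, −1.15 and −0.84 and did not pass (adjusted p = 0.074, 0.08 and 0.0626).

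Histone genes that are expressed mainly while the chromosomes are copied were also among the falls. H2ac11, H2ac22 and H2ac23, 3 copies of the H2A gene on chromosome 13, fell by 0.63, 0.60 and 0.76 (SE 0.15, 0.14 and 0.18) with adjusted p of 0.0467, 0.044 and 0.0465. These genes were named after their values were seen, and near-identical copies can share a probe's signal, so that they may be 1 measurement. H2ac22 read 3.59, 3.81, 3.58, 4.07 and 3.91 on the control arrays, 3.25, 2.99 and 3.08 on the VCF arrays, 2.92, 2.92 and 3.26 on the CCF arrays, and 3.01, 3.63 and 3.62 on the RCF arrays. VCF and CCF lay below all controls, while RCF 2 and RCF 3, both on slide 3, overlapped them. The cell cycle list was mixed. Of 30 genes 4 lay below control in all 3 groups and 1 above, and none of the 30 passed as a member, where 0.579% of all genes fell. Of the 30, 6 lay below control at an unadjusted p under 0.05 and 0 above, where 8.05% of all genes lay below. Cdca3, of mitosis, passed (adjusted p = 0.0459) but is no member, since it lay at 0.05 in CCF. The median of the list was −0.76 in VCF, 0.29 in CCF and −0.08 in RCF. The calls were kept in 3 of 14 fits with 1 array left out for H2ac22 and in 1 for H2ac11 and H2ac23, and none of the 3 passed without the dim arrays (adjusted p from 0.083 to 0.0946).

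Promoters of these histone genes are known for CCAAT boxes. CCAAT, on either strand, occurred in the 250 bases before the start in 3 of 3 H2A genes, in 38 of 81 promoters of called falls (46.9%) and in 9314 of 27025 in the whole RefSeq table (34.5%). Shown in capitals (ATTGG is the motif on the other strand) are the matches in H2ac22 (chr13:21787249-21787498, minus strand, 4 matches) and H2ac23 (chr13:21810117-21810366, plus strand, 2 matches) on GRCm38.p6, 5′ to 3′. They are shown as cases with different numbers of matches. Coding sequences were not compared, and whether these stretches reach into neighbouring genes was not examined.
H2ac22: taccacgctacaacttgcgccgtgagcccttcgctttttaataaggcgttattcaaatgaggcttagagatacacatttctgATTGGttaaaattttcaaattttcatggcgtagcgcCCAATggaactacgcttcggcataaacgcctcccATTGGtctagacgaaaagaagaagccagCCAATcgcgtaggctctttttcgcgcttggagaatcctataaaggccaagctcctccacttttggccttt
H2ac23: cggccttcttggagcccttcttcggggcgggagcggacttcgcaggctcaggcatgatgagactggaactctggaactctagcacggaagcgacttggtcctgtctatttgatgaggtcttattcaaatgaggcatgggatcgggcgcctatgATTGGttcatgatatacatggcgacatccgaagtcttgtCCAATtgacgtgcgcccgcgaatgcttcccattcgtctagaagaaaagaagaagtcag

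Genes of vessels and matrix that fell were Gja5, a gap junction protein of arterial endothelium, by 0.60 (SE 0.14, adjusted p = 0.0495), and 3 genes named after their values were seen. These were Cx3cl1, the membrane-bound chemokine fractalkine, at −0.59 ± 0.11, Igfbp3, which binds insulin-like growth factors, at −0.64 ± 0.12, and Hspg2, the basement membrane proteoglycan perlecan, at −0.71 ± 0.15. Cx3cl1 read 3.05, 2.72, 2.96, 3.08 and 3.24 on the control arrays, 2.31, 2.05 and 2.37 on the VCF arrays, 2.72, 2.50 and 2.40 on the CCF arrays, and 2.34, 2.47 and 2.64 on the RCF arrays. Its fibre arrays lay below all controls, with CCF 1 and control 2 almost equal. The endothelial list as a whole moved neither way, with 1 of 21 genes up, 1 down and a median of −0.08. Each call was 4.76% of the list, where 2.00% of all genes rose and 0.579% fell. Without adjustment 4 of the 21 lay above control at p under 0.05 and 4 below. Cx3cl1 kept its call in 9 of 14 fits with 1 array left out, Igfbp3 in 5, Hspg2 in 4 and Gja5 in 0. Without the 3 dim arrays none of these 4 passed (adjusted p from 0.0683 to 0.0813). A second, dim probe of Hspg2 gave 0.18 (adjusted p = 0.76), the mean of both probes was −0.26, and a second probe of Gja5 gave −0.33 (adjusted p = 0.615).

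Several of the 14 largest falls were deepest in CCF, as 117 of all 173 falls were. Usp37, a deubiquitinase, lay at −0.44 in VCF, −2.59 in CCF and −1.39 in RCF, Hmbox1, a homeobox factor, at −0.60, −2.08 and −1.30, and Cbx5, the heterochromatin protein HP1 alpha, at −0.44, −1.83 and −1.11. Ammecr1 lay at −0.46, −1.80 and −1.22, and Slmap, a tail-anchored membrane protein, at −0.42, −1.79 and −0.97. The mean falls were −1.47 ± 0.25, −1.33 ± 0.29, −1.13 ± 0.18, −1.16 ± 0.18 and −1.06 ± 0.21. Several of these rest on a probe that other probes of the gene did not follow. Fubp1, a regulator of Myc, fell by 1.06 (SE 0.20, adjusted p = 0.0245) on its brightest probe and stood at 0.79 (adjusted p = 0.00473) on another. Cpeb4, which binds messenger RNA tails, fell by 1.06 (SE 0.25, adjusted p = 0.0471) on one and stood at 0.61 (adjusted p = 0.0275) on another. Itpkb, an inositol phosphate kinase, fell by 1.05 (SE 0.14, adjusted p = 0.00948) with another probe at 0.46 (adjusted p = 0.48), and a second probe of Cbx5 gave 0.06 (adjusted p = 0.834) and one of Slmap −0.29 (adjusted p = 0.474). Probes of 1 gene can lie on different transcript ends, and which end each probe reads was not examined. Itpkb kept its call in 14 of 14 fits with 1 array left out, Ammecr1 and Cbx5 in 13, Usp37 in 11, Fubp1 in 10, Slmap in 7, Cpeb4 in 3 and Hmbox1 in 2. Ammecr1 passed without the 3 dim arrays, at −1.03 (adjusted p = 0.0455), and the other 7 did not (adjusted p from 0.0515 for Itpkb to 0.11 for Hmbox1). After normexp correction and quantile scaling Usp37 stood at −0.78 and Itpkb at −0.52. Olfr1163, an odorant receptor above background on 4 control and 2 fibre arrays, fell by 2.20 (SE 0.51, adjusted p = 0.0467), but within slide 3, where RCF is the only fibre, it differed by 0.05. It stood at −0.75 after normexp correction and did not pass without the dim arrays (adjusted p = 0.0675).

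Agreement between probes was limited over the whole set of calls. Of the 194 called rises with another probe past the filter, all other probes lay above 0 for 122 (62.9%), and another probe was called the same way for 23 (11.9%). For the 44 such falls the counts were 25 (56.8%) and 3 (6.82%). Over all 5923 genes with more than 1 probe the other probes lay on the same side for 55.9%, and for genes that rose or fell without a call it was 65.1% and 45.9%. The share for called rises was thus no higher than for rises without a call.

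Genes of energy production and protein synthesis lay slightly but widely below control. Of 81 respiratory chain subunits 67 lay below control in all 3 groups and 1 above, the median was −0.29, 44 were below at an unadjusted p under 0.05 (8.05% of all genes were), and 2 fell (2.47%, against 0.579% of all genes). Ndufb11, a subunit of complex I, read 5.64, 5.58, 5.56, 5.59 and 5.71 on the control arrays, 5.48, 5.39 and 5.28 on the VCF arrays, 5.09, 5.09 and 5.22 on the CCF arrays, and 5.31, 5.26 and 5.39 on the RCF arrays. All fibre arrays lay below all controls, and the fall was small, at −0.34 ± 0.07 (adjusted p = 0.0421). Atp5d, of the ATP synthase, fell by 0.51 (SE 0.11, adjusted p = 0.0444). Of 85 cytosolic ribosomal protein genes 68 lay below control in all 3 groups and none passed the test, with 27 below at an unadjusted p under 0.05 and a median of −0.25. With quantile scaling between arrays that median was −0.04. Of 38 proteasome subunits 22 lay below control in all 3 groups, and Psmd13 fell by 0.40 (SE 0.09, adjusted p = 0.0428), with a second probe at 0.12. Ndufb11 and Atp5d kept their call in 2 of 14 fits with 1 array left out and Psmd13 in 3, and none of the 3 passed without the dim arrays (adjusted p from 0.0964 to 0.121). Ndufb11 stood at −0.19 with quantile scaling. The respiratory, ribosomal and proteasome lists, like the zinc finger list, were drawn up with earlier results of these data known.

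**Figure D5:**
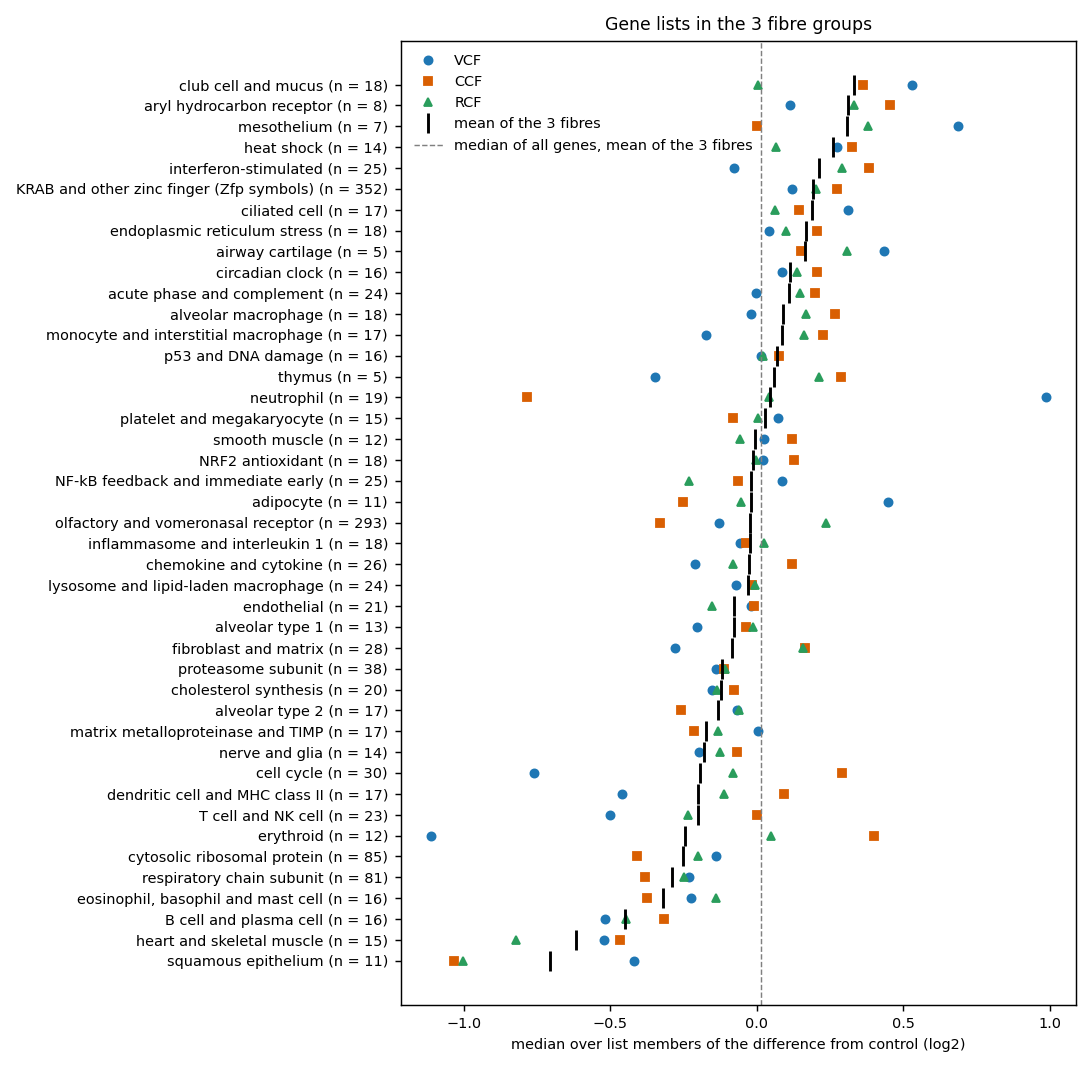
Median over the members of each list of the difference from control (log2) in VCF (circles), CCF (squares), RCF (triangles) and the mean of the fibres (bars), ordered by the last; the dashed line is the median of all genes at 0.01. The B cell list lies below 0 in each fibre (−0.52, −0.32 and −0.45), while the neutrophil list is split, at 0.99 in VCF, −0.78 in CCF and 0.04 in RCF.

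Several lists known from lung inflammation gave no call in the mean of the fibres. Since 2.58% of all genes were called, lists of this size can lack a call without differing from all genes. Of 19 measured neutrophil markers none passed the test, 2 lay above control in all 3 groups and 1 below, and the median was 0.99 in VCF, −0.78 in CCF and 0.04 in RCF. Their summed level ran from 192 to 262 times the 75th percentile in controls and from 136 to 433 times in fibre arrays. Stfa1, a protease inhibitor of neutrophils and no member, stood at 2.69 in VCF, −0.74 in CCF and 0.05 in RCF, and differed among the fibres (adjusted p = 0.0204). The 12 erythroid markers had a median of −1.11 in VCF and 0.40 in CCF. On its brightest probe no monocyte, chemokine, inflammasome, cholesterol synthesis, metalloproteinase or lysosome gene of the lists passed the test as a member. At an unadjusted p under 0.05 the counts above and below control were, in that order, 3 and 2 of 17, 3 and 2 of 26, 4 and 2 of 18, 0 and 6 of 20, 1 and 2 of 17, and 4 and 1 of 24. Of all genes 11.5% lay above and 8.05% below at that p. The 6 of 20 cholesterol synthesis genes below control were a larger share than that. A second probe of Lamp2, of the lysosome list, stood at 0.46 (adjusted p = 0.0346). The chemokine list did not hold Cx3cl1, a chemokine that fell, as given above.

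Genes often measured after particle exposure were likewise mixed, and 5 of 12 met the rule, all above control. Spp1, the matrix protein osteopontin made by macrophages, read 3.03, 3.04, 3.81, 3.17 and 3.41 on the control arrays, 4.69, 5.42 and 4.48 on the VCF arrays, 3.33, 3.99 and 3.81 on the CCF arrays, and 3.50, 3.42 and 3.59 on the RCF arrays. The VCF arrays and CCF 2 stood above all controls and the other fibre arrays among them, and the mean difference of 0.73 ± 0.19 did not pass (adjusted p = 0.0584). Chil3, a chitinase-like protein of alveolar macrophages, differed by 0.39 ± 0.17 (adjusted p = 0.22), and Cxcl5, a neutrophil attractant, by 1.12 ± 0.42 (adjusted p = 0.164). Mmp12, the macrophage elastase, and Lcn2, an iron-scavenging defence protein, differed by 0.47 and 0.20 (adjusted p = 0.493 and 0.549). Il1b, Timp1, Hmox1, Ccl17, Ccl2, Saa3 and Gpnmb lay on both sides of control in different fibres and were not members, with adjusted p between 0.754 and 0.996.

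Beyond function, the called genes with a symbol differed in size. The median span of the gene from start to end was 42.4 kb for the 382 rises, 15.4 kb for the 105 falls and 20.0 kb for all 17290 genes with a symbol. On the scale of the array the rises had a median level of −0.28 and the falls of 1.21, against −0.09 over all genes with a symbol. Calls were spread over the chromosomes, from 0.842% of genes rising on chromosome 19 to 4.25% on chromosome 3 among the autosomes. These are descriptions without a test, and whether gene size or probe brightness bears on the calls was not tested.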

How the data were processed

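RNA of 14 lungs was labelled with Cy3 and hybridised to one-colour arrays of 62976 spots. Scans had been quantified by Feature Extraction 10.7.3.1, per the file headers. The deposited array files hold intensity values, the program's processed signal after background subtraction and spatial detrending, not scaled between arrays. The authors' deposited table holds log2 values, which differ from log2 of that signal by a constant for each array. The medians of its columns ran from −0.52 (RCF 2) to 0.30 (VCF 1). Those values are thus on a known scale with a known direction and are not centred per gene; the sources used here do not say where the constants come from. The mean signal was not in the files used here, and the median signal took its place in the normexp alternative.

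Log2 of the processed signal minus the array's 75th percentile over non-control spots was used. Kept were 37984 probes that at least 3 of the 14 arrays showed well above background. RefSeq accessions gave 32994 of 56605 probes 1 symbol and left 23611 without. A gene was read from its brightest probe by mean, and probes lacking a symbol were kept as single features. The files and the reference differ in build, so that genes are given by chromosome only. The promoter stretches are the exception, with positions on GRCm38.p6.

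Limma 3.58.1 in R 4.3.3 (files read with version 1.17.8 of the data.table package) was fitted to all 14 arrays, the 4 groups sharing the spread, with no covariates. Tests were two-sided. The fibre mean gave each fibre group equal weight, and a moderated F test compared the fibres. Where no array of a group was above background, each of its values was raised to at least the lowest signal above background on that array. The fold given for such a gene was taken against these values. The number of arrays limits the precision.

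Genes were named by a rule: the 14 largest rises and falls with all 9 fibre arrays on 1 side of the control mean, the 8 most even over the fibres, up to 3 called members of each of 43 lists (the member of smallest p, as a value, where none was called) and 12 genes known from particle exposure. Results for 2 of these named genes are not reported here. The members, the lists and the rule were chosen with earlier results of these data known. Arrays were paired by number only if all same-numbered pairs correlated above 0.1 in their deviations. Of these pairs 12 of 18 did (median correlation 0.18), so no pairing was used. Of the differently numbered pairs 11 of 54 did (median −0.04), so that same-numbered arrays were more alike. Number and slide overlapped, since all arrays numbered 1 stood on slide 1 and number 3 of control, VCF and CCF on slide 2. Likeness by number was not told apart from likeness by slide. With replicate number as a block 0 members were called, as given below. Alternatives covered background correction, scaling, filter, probe rule, slide, replicate number, array weights, prior, dim arrays and each array left out.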

Additional observations from a re-analysis of the deposited data

Results flagged for a closer look

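In 7 genes named above 1 control array stood far from the other 4, by a rule that chance meets in about 5% of groups. Control 2 read 4.26 for Ly6d against 2.80 to 3.10 in the other controls, and −2.76 for Hmbox1 against −1.29 to −0.97. Control 1 read −0.79 for Hydin against −0.92 to −0.90, 0.41 for Zfp943 against 0.69 to 0.79, and −1.97 for Zfp40 against −2.51 to −2.42. Control 3 read −2.56 for Slc39a10 against −3.45 to −3.23, and control 5 read 0.44 for Lox against 0.02 to 0.10. In Ly6d and Zfp943 the outlying control lay away from the fibre arrays, and in Hydin, Hmbox1, Zfp40, Slc39a10 and Lox it lay towards them.

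The fibres differed from each other by limma's F test in Crabp1 (adjusted p = 0.0434), lowest in VCF, and in Cdca3 (adjusted p = 0.0316), which lay at −1.30 in VCF, 0.05 in CCF and −0.34 in RCF and is therefore no member.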

How the results depend on the processing

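The number of genes on 1 side of control in all 3 fibre groups stayed within 1.5 times of 15851 under every alternative, while the number of called members, 784, did not. It was 346 with scaling to the median, 490 with quantile scaling after the 75th percentile, 417 with the mean of all probes, 49 without a background filter, 1358 and 1628 with probes above background on at least 7 or all 14 arrays, 1222 with the authors' deposited values, 1652 and 2203 with slide as a fixed or random block, 4961 with array weights, 1279 with limma-trend, 166 without the 3 dim arrays, 568 with normexp and quantile scaling, and 61 to 1029 with 1 array left out. With replicate number as a block (replicate block) it was 0, with 3951 genes at an unadjusted p under 0.05, and controls 4 and 5 then carry no information. Genes differing among the fibres, 27, came to 17 with quantile scaling, 0 without a filter, 53 and 49 with the stricter filters, 73 and 134 with slide as a block, 0 with the replicate block, 2646 with array weights, 58 with limma-trend, 0 without the dim arrays, and 0 to 56 with 1 array left out. Higher calls were 77.6% of 790, and 65.5% of 1235 with the authors' values, 67.1% with limma-trend, 54.3% with array weights and 63.1% without the dim arrays. Without a filter the median of all genes moved to 0.10. The called members measured kept their sign under each alternative (750 with the authors' values, 757 and 631 with the stricter filters, 784 otherwise) except normexp (783 of 784) and the mean of probes (771 of 784), which their choice largely fixes. Vmn2r46 turned to −0.018 under the former and Hydin to −0.18 under the latter, and the cause was not tested for Vmn2r46. Of 85 named calls 27 shrank by over 1.5 times under normexp and 21 with the mean of probes (counting those that turned), and 52 held with median scaling, 21 without the dim arrays and 13 without control 4. The median of the ribosomal list was −0.04 under both quantile scalings. With the authors' values 78 of 82 named calls held, and P2ry12, Slc16a4, Hs3st3a1 and Tnfrsf17 did not pass.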
